A study of Gallus gallus with 6 samples.

Results

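The 179 genes described here had transcript levels that were lower in late growth than in early growth and lower again in rest, in the epidermal tissue at the base of the chicken contour feather. Transcript level was given in TPM (a share of all reads corrected for transcript length, so that levels of different genes can be set side by side). Members were chosen by 3 conditions on the 23724 rows of the expression table. The lower of the 2 early growth values had to be above 5 TPM and more than 1.6 times the higher late growth value, and the lower late growth value had to be more than 1.6 times the higher resting value. Of the 9889 rows above the TPM minimum, 194 met the numbers. Another condition left out 15 of them by name, because their identifiers start with KIF, CDK, CCN, MCM, FZD, FOX, HOX or COL or are GAS1. These were CCNB2, CCNB3, CCNF, CDK2, COL14A1, COL23A1, COL7A1, FOXC1, FZD8, GAS1, KIF18B, KIF23, KIF4A, KIFC1 and KIFC1L. The members were thus selected on all 6 libraries and on both steps, so their levels and differences are given as descriptions with no test.

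The tissue was the papilla ectoderm of contour feathers of White Leghorn chickens, labelled as epidermal progenitor cells. It was peeled from the dermal papilla after EDTA treatment. Feathers were plucked and regrown, and tissue was taken at 3 weeks (early growth), 7 weeks (late growth) and 10 weeks (resting), with 2 libraries at each time. All birds were untreated, the study used male birds from 6 months to 1 year of age, and all libraries carried the same batch label. Nothing says whether the 2 libraries of a phase came from different birds, so the spread between them may be technical, and no exact permutation test of 2 against 2 can go below a two-sided p of 0.3333.

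A feather grows from a ring of epidermal cells at the base of its follicle. Stem cells in this ring and in the papilla ectoderm give rise to cells that divide for a short time, move up and turn into the branches and sheath of the feather. In rest these cells stay as a thin ectoderm around the dermal papilla until the follicle is activated again. A dividing cell copies its DNA with replication factors that are loaded at origins, guards the copy with checkpoint and repair proteins, and then separates the chromosomes with condensins, kinetochores and a spindle before the cleavage furrow closes. Many of these genes are transcribed only as a cell commits to division, under E2F factors that the RB family holds back. WNT signals, which R-spondins amplify through LGR receptors, maintain many epithelial stem cell pools.

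The 6 libraries summed to between 989470 and 998450 TPM and held between 11691 and 13334 genes above 1 TPM. Of the 13063 genes tested, early growth library 2 listed 814 at 0 and library 1 listed 124. The table held no read counts, so the depth was unknown and a gene without signal can only be said to be listed at 0. Basal keratinocyte markers fitted the label in every library. KRT5 stood at 4832 and 5387 TPM in early growth, 3962 and 4126 TPM in late growth and 2959 and 3032 TPM in rest, and the basal list took 1.5% and 1.61% of all TPM in early growth, 1.23% and 1.24% in the late phase and 1.10% in both resting libraries. The sum over the basal list, in which KRT5 and KRT14 were the most abundant genes, thus had the order of the members over a much narrower range. Not all of its genes did. SFN, the next most abundant in both growth phases, was highest in late growth, at 1226 and 1348 TPM in early growth, 1979 and 1794 TPM in late growth and 418 and 389 TPM in rest. Of the 18 basal markers outside the member set, 10 were called lower and 4 higher at each step (limma, adjusted p under 0.05, described below). Over all tested genes 28.4% were lower and 5.24% higher at the first step, and 23.1% and 24.7% at the second. Keratinocyte differentiation markers had their highest share in late growth, with 0.553% and 0.663% of TPM in the early phase, 1.33% and 1.39% in the late phase, and 0.442% and 0.451% in rest. KRT75L2, a keratin and the most abundant gene of that list in late growth, stood at 258 and 669 TPM in early growth, 5708 and 6198 TPM in late growth and 19.2 and 23.0 TPM in rest. Here too the genes differed. KRT17 stood at 1861 and 2283 TPM in early growth, 1443 and 1373 TPM in late growth and 1193 and 1170 TPM in rest. KRT6A was about as high in rest (2012 and 2067 TPM) as in late growth (2047 and 2103 TPM). Of the 19 tested genes of the list, 3 were lower and 11 higher at the first step. At the second step 10 were lower and 4 higher. Other tissue was present as well. For smooth muscle markers the share of TPM was 0.496% and 0.406% in early growth, 0.144% and 0.156% in the late phase, and 6.26% and 6.45% in rest. Erythroid markers, mostly globins, took between 0.126% and 0.163% in growth and 5.58% and 5.61% in rest. The endothelial, fibroblast and leukocyte lists were likewise lowest in late growth in all libraries. Of the 13 melanocyte markers, DCT, MLANA, SLC45A2 and TYR were listed at 0 in all 6. That list summed to 24.91 and 10.26 TPM in early growth, 13.3 and 16.45 TPM in late growth and 48.97 and 55.29 TPM in rest. Its most abundant gene, MITF, was highest in rest, at 34.95 and 33.94 TPM. None of the lists of other tissues was ordered as the members were. The part of basal cells, of differentiating cells and of other tissue in the members' levels was not tested. In such bulk samples, fewer cells of a type and less RNA per cell cannot be told apart.

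Together the members took 1.48% and 1.52% of all TPM in early growth, 0.710% and 0.707% in the late phase, and 0.228% and 0.224% in rest. Their mean level in early growth ran from 5.05 to 1522 TPM with a median of 38.0 TPM. The median was 14.9 TPM in late growth and 2.87 TPM in rest. In rest 60 members had a mean under 1 TPM and 47 were still above 10 TPM. Both resting libraries listed 20 members at 0, and 1 of the 2 did so for another 16. In the members the libraries of one phase lay close together, which the rule favours, since it compares the nearest libraries of 2 phases. Over all tested genes the within-phase standard deviation of log2(TPM + 1) was 0.562 (early growth), 0.272 (late growth) and 0.365 (rest). These values average squared differences over genes, so genes with libraries far apart weigh heavily. They are another measure than the median ratios that follow, and the 2 are not compared. Among the members the higher library exceeded the lower one by a median of 1.10 times in early growth and 1.11 times in late growth. In rest it did so by 1.24 times, in the 143 members above 0 in every library.

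**Figure D1:**
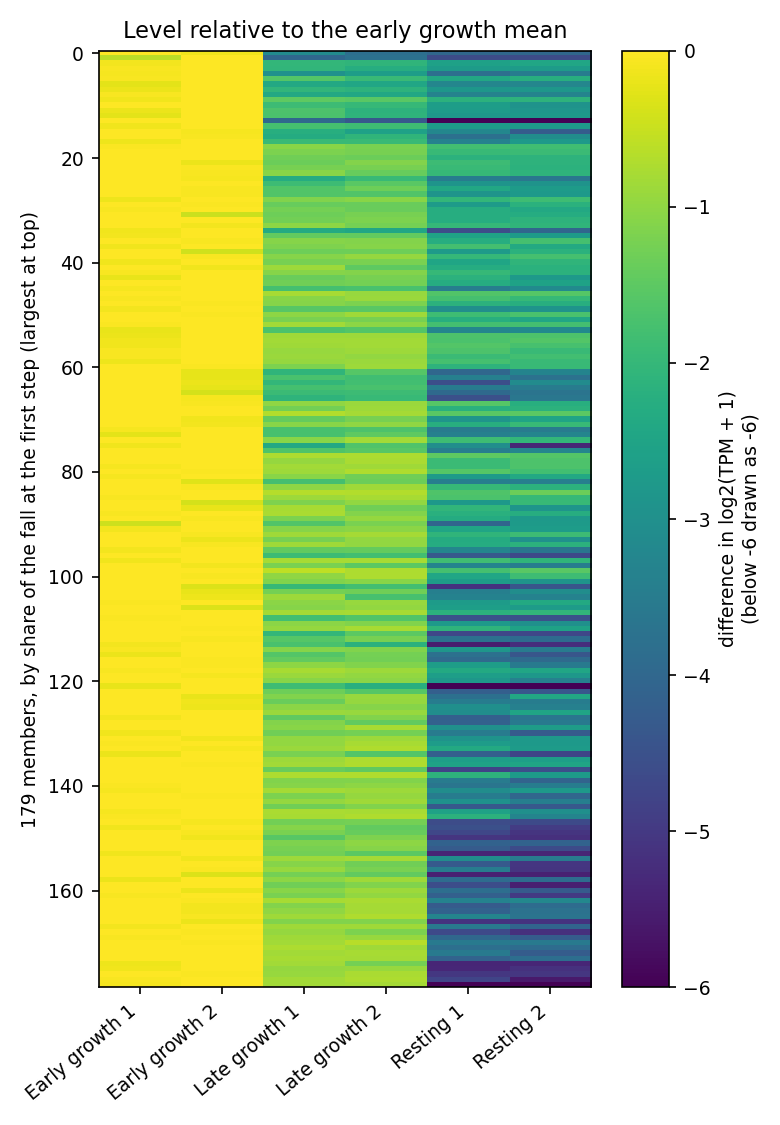
Level of each of the 179 members (rows) in the 6 libraries (columns), as the difference in log2(TPM + 1) from the member's early growth mean, with differences below -6 drawn as -6. Members are ordered by the share of their whole difference that falls between early and late growth, which runs from 86.9% at the top to 12.5% at the bottom, and the darkest resting values lie toward the bottom.

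The sizes of the 2 steps differed between members. On the log2(TPM + 1) scale the difference between late and early growth had a median of -1.13 and ranged from -4.16 to -0.66. That between rest and late growth had a median of -1.68 and ranged from -5.75 to -0.46. The value of -5.75 belongs to RACGAP1, which was listed at 0 in both resting libraries, so it depends on the 1 TPM added before taking logarithms. Over the 143 members above 0 in every library these medians were -1.08 and -1.45. All 13063 tested genes had medians of -0.31 and 0.02, so relative to them the members' medians were -0.82 and -1.69. The second step was the larger in 115 members and the first in 64.

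**Figure D2:**
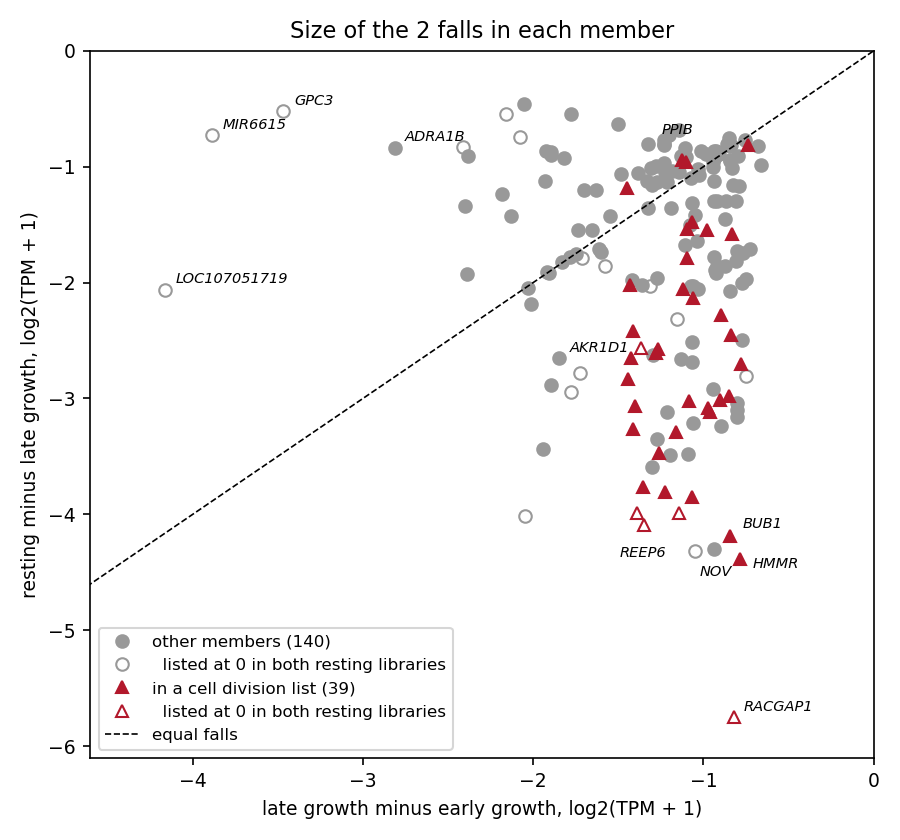
Difference between late and early growth (horizontal axis) and between rest and late growth (vertical axis), both in log2(TPM + 1), for the 179 members. Triangles are the 39 members in a cell division list, circles the other 140, and open symbols those listed at 0 in both resting libraries. The dashed line marks equal differences, and 36 of the 39 triangles and 79 of the 140 circles lie below it. The lists were chosen with earlier results of these data known, so this contrast is not read as a result. Some circles are genes with a role in division, such as TUBA1C, INCENPL, OGG1 and TOP3A. By role, 28 of 32 mitosis genes and 14 of 20 replication and repair genes lie below the line.

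The members near the limits show how the set was bounded. The lower early growth value of GIMAP5L was 5.01 TPM, and that of LOC112531600, left out, was 4.99 TPM. ZGRF1 and SLC28A2 came next inside, at 5.22 and 5.29 TPM, and CSMD2 and TPH1 outside, at 4.81 and 4.40 TPM. At the first step the ratio of the nearest libraries was 1.602 in SLC25A39, inside, and 1.599 in PLK2, outside. DEPDC1 and SPC24 lay just inside as well, and TUBA3E and ANGPT2 just outside. At the second step the ratio was 1.603 in ABHD14A and 1.599 in GNB1L, with HNRNPUL1 and CSNK1G1 next inside and SMOX and PDIA3 next outside. The nearest genes on the 2 sides of a limit therefore had almost the same value of the quantity that it bounds. Their other values could differ, as in the first-step ratio of GIMAP5L, 1.65, and of LOC112531600, 5.78.

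Genes of mitosis formed the biggest group with a known role, with 32 members. The role groups were drawn up after the values were seen, and mitosis genes such as KIF23 and CCNB2 were left out by name. The size of a group is therefore not read as a result. Median differences of the mitosis genes were -1.07 at the first step and -2.84 at the second, and 28 of the 32 had the larger difference at the second. Spindle assembly was represented by TPX2, an activator of Aurora A kinase on spindle microtubules, at 116 and 134 TPM in early growth, 68.8 and 68.5 TPM in late growth and 9.53 and 6.44 TPM in rest. The 3 phases did not overlap, as the rule requires, and most of the decline lay between late growth and rest (-0.85 and -2.98). PRC1, which bundles microtubules in the spindle midzone, was measured at 99.8 and 103 TPM in early growth, 42.5 and 47.0 TPM in late growth and 4.26 and 3.14 TPM in rest. CDCA3, a factor of mitotic entry, stood at 121 and 114 TPM in early growth, 59.8 and 51.0 TPM in late growth and 3.61 and 2.30 TPM in rest. PRC1 kept 44.2% of its early growth mean in late growth and 3.66% in rest, and CDCA3 kept 47.3% and 2.52%.

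Several of these genes were at or close to 0 in rest. RACGAP1, a part of the centralspindlin complex that directs the cleavage furrow, stood at 89.3 and 98.8 TPM in early growth and 52.1 and 53.2 TPM in late growth and was listed at 0 in both resting libraries. CENPA, the histone variant that marks centromeres, stood at 53.0 and 33.9 TPM in early growth and 17.2 and 15.0 TPM in late growth, and CENPI, a kinetochore protein that sits on it, at 37.3 and 44.2 and 16.1 and 13.7 TPM. Both were listed at 0 in both resting libraries. BUB1, a kinase of the spindle checkpoint, had levels of 49.6 and 47.7 TPM in early growth, 25.2 and 28.2 TPM in late growth and 0.535 and 0.497 TPM in rest. HMMR, a spindle protein and hyaluronan receptor, stood at 61.7 and 66.1 TPM in early growth, 35.4 and 37.9 TPM in late growth and 1.39 and 0.354 TPM in rest, and only 15.2% of its difference lay at the first step. The resting mean was 1.06% of the early growth mean in BUB1 and 1.36% in HMMR, while late growth still held 54.8% and 57.3% of it.

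Structural parts of the dividing chromosome were among the members too. NCAPH, a subunit of condensin I, was measured at 99.3 and 99.7 TPM in early growth, 39.7 and 44.5 TPM in late growth and 3.18 and 1.26 TPM in rest, and NCAPH2, of condensin II, at 54.0 and 55.1 TPM in early growth, 23.9 and 26.6 TPM in late growth and 2.19 and 2.29 TPM in rest. The kinetochore subunit SPC24 stood at 107 and 88.6 TPM in early growth, 52.4 and 55.2 TPM in late growth and 10.7 and 7.62 TPM in rest. SPAG5, KNTC1, MIS12 and CENPT, further proteins of the kinetochore and spindle, were members as well. ANLN, the anillin that scaffolds the contractile ring, had levels of 114 and 99.8 TPM in early growth, 52.8 and 60.7 TPM in late growth and 5.28 and 7.13 TPM in rest. The alpha tubulin TUBA1C had the highest level of the group by far. It stood at 811 and 835 TPM in early growth, 506 and 470.4 TPM in late growth and 284 and 286 TPM in rest, with about equal differences of -0.75 and -0.77. Alpha tubulin genes are nearly identical copies, so how reads were shared between them is uncertain. INCENPL, named in the table as a relative of the chromosomal passenger gene INCENP, had the lowest early growth mean of the group, with levels of 5.91 and 6.40 TPM in early growth, 1.34 and 0.863 TPM in late growth and 0.357 and 0.517 TPM in rest, and 76.6% of its difference lay at the first step. CEP85, PSRC1 and ODF2, proteins of the centrosome and spindle, were the other members of the group with the larger difference at the first step (54.1%, 53.3% and 52.5%).

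The 20 members of DNA replication and repair had median differences of -1.17 and -1.91, and 14 had the larger difference at the second step. GINS1, a subunit of the replicative helicase, was measured at 102 and 100.5 TPM in early growth, 40.1 and 33.4 TPM in late growth and 4.64 and 3.93 TPM in rest. POLA2, a subunit of the polymerase that starts each new strand, stood at 67.3 and 76.8 TPM in early growth, 25.8 and 25.6 TPM in late growth and 11.5 and 10.1 TPM in rest. LIG1, the ligase that joins the fragments of the lagging strand, had levels of 48.7 and 58.0 TPM in early growth, 20.8 and 21.8 TPM in late growth and 3.77 and 1.81 TPM in rest. In POLA2 55.1% of the difference lay at the first step, against 33.7% in GINS1 and 33.0% in LIG1. The first step was also the larger in DBF4B (62.5%), OGG1 (56.8%), PSMC3IP (54.3%), TOP3A (50.3%) and LOC107057377 (50.3%) of this group. Origin factors differed in how far they went. CDC6, which loads the helicase, stood at 27.2 and 32.5 TPM in early growth, 13.4 and 10.4 TPM in late growth and 0.326 and 0 TPM in rest, whereas ORC4, a subunit of the complex that marks origins, still stood at 16.1 and 14.8 TPM in rest, from 47.5 and 46.7 TPM in early growth. The row LOC107057377, which the RefSeq gene table names POLD2, a subunit of the main replicative polymerase, was measured at 139.9 and 152 TPM in early growth, 77.4 and 74.1 TPM in late growth and 38.2 and 40.7 TPM in rest.

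Among the repair genes, 4 belong to the Fanconi anaemia pathway, which removes links between the DNA strands. FANCD2 stood at 38.4 and 32.1 TPM in early growth, 11.4 and 15.1 TPM in late growth and 0.0743 and 0 TPM in rest, and its partner FANCI at 42.8 and 38.8 TPM in early growth, 12.9 and 16.7 TPM in late growth and 2.08 and 1.79 TPM in rest. FANCA stood at 14.6 and 13.9 TPM in early growth and 4.61 and 5.25 TPM in late growth and was listed at 0 in both resting libraries. UBE2T, the conjugating enzyme of the pathway, remained at 19.4 and 18.0 TPM in rest. The pathway thus held genes that reached 0 and genes that did not. CHEK1, the kinase that halts the cycle when replication stalls, had levels of 105 and 106 TPM in early growth, 50.8 and 47.2 TPM in late growth and 14.6 and 12.4 TPM in rest. DNA2, a nuclease and helicase of replication and repair, was at 38.3 and 30.2 TPM in early growth and 15.0 and 14.8 TPM in late growth and listed at 0 in both resting libraries. RBL1, the RB family protein p107, which represses E2F targets, stood at 55.3 and 43.7 TPM in early growth, 20.5 and 24.7 TPM in late growth and 9.21 and 5.41 TPM in rest. Its early growth libraries lay further apart than those of most members. RBL1 was the single member of the E2F and RB family list, although CDK2 of that list met the numbers and was left out by its name. Of the other 26 genes, CDK2 among them, 14 (53.8%) were lower at the second step by limma, against 23.1% of all tested genes. At the first step 5 were lower (19.2%, against 28.4%) and 5 higher. With RBL1 included, 6 of 27 (22.2%) were lower at the first step and 15 (55.6%) at the second.

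**Figure D3:**
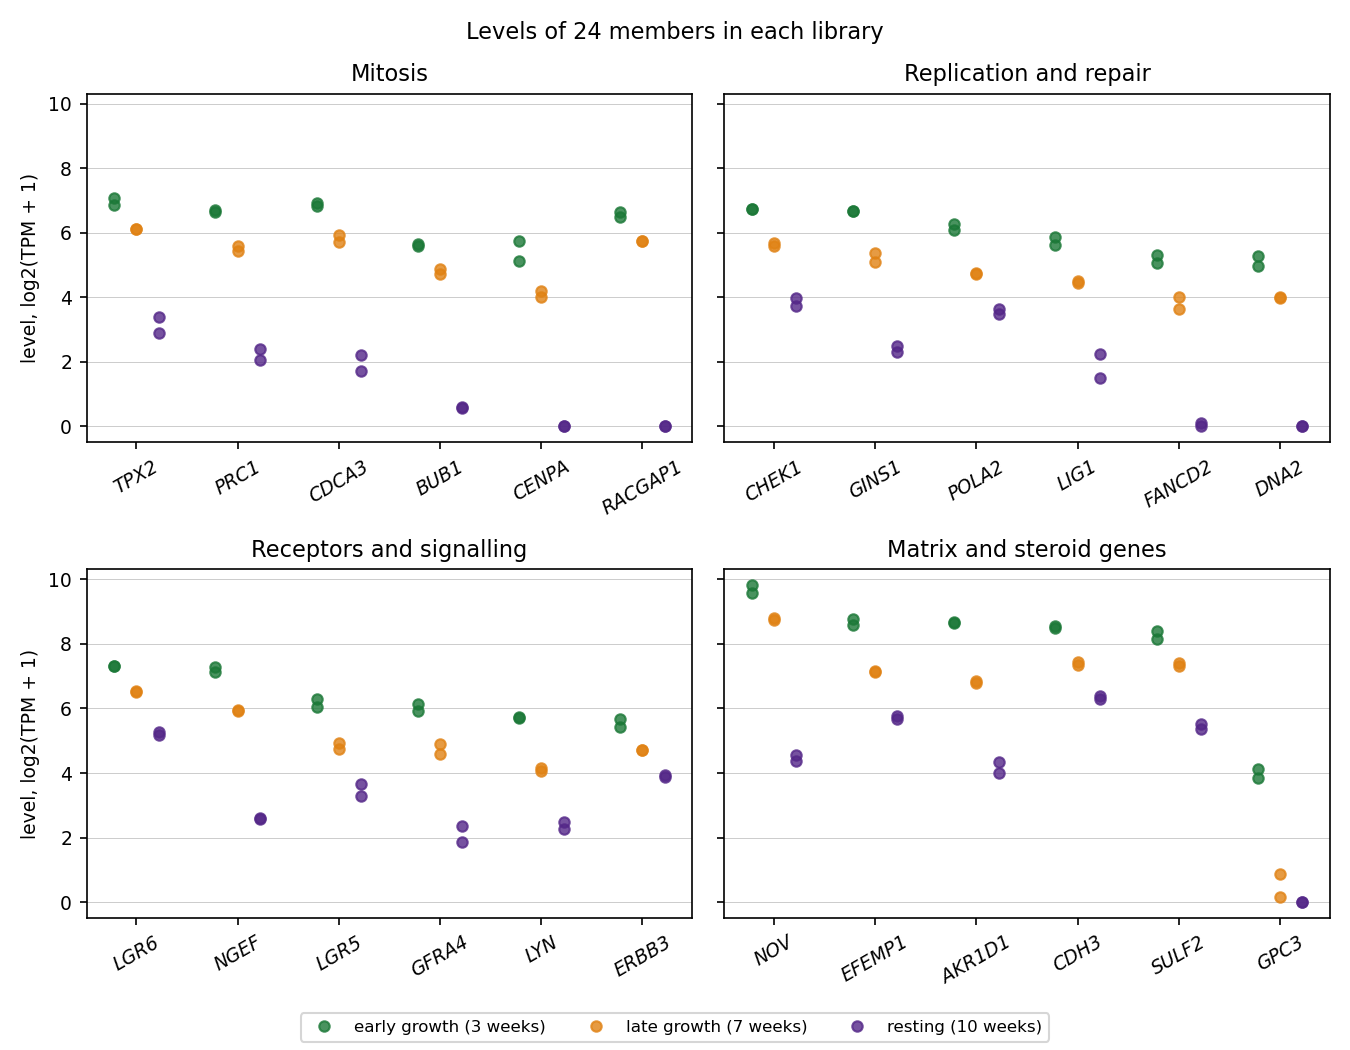
Level in log2(TPM + 1) of 24 members in each of the 6 libraries, 6 to a panel, with 1 point per library and no averaging. In every gene shown the 2 early growth points lie above the 2 late growth points and these above the 2 resting points, as the choice of members requires; RACGAP1, CENPA, DNA2 and GPC3 reach 0 in both resting libraries.

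Receptors and signalling proteins made up 15 members, with median differences of -1.27 and -1.29. LGR6 and LGR5, which bind R-spondins and mark stem cells in hair follicles, were both among them. LGR6 was measured at 160.0 and 159.9 TPM in early growth, 90.3 and 91.9 TPM in late growth and 35.3 and 37.9 TPM in rest. LGR5 stood at 78.1 and 64.4 TPM in early growth, 25.8 and 29.7 TPM in late growth and 8.82 and 11.7 TPM in rest, and its differences of -1.33 and -1.36 were nearly equal. The third receptor of this family, LGR4, did not meet the rule. It had levels of 123 and 101 TPM in early growth, 78.4 and 86.2 TPM in late growth and 58.8 and 58.9 TPM in rest, with differences of -0.43 (SE 0.12, limma adjusted p 0.0392) and -0.48 (SE 0.12, limma adjusted p 0.0205). The first difference of LGR4 was -0.09 after median-of-ratios scaling (adjusted p 0.484) and -0.19 after quantile normalization (adjusted p 0.267), and over all alternatives its adjusted p ran from 0.0191 to 0.484. Neither call on LGR4 held without late growth library 1 (adjusted p 0.198 and 0.0621), without late growth library 2 (0.108 and 0.121) or without resting library 1 (0.0861 and 0.0984) or 2 (0.0860 and 0.0981), and the first was also lost without early growth library 1 (0.0809), with no filter (0.0553), with the 2 phases alone (0.0840) and with a replicate block (0.0669). The second was lost with the rescaled TPM (0.102), the range over its alternatives being 0.00661 to 0.121. Whether the differences of LGR4 differ from those of LGR5 and LGR6 was not tested.

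NGEF, a signalling protein that acts below ephrin receptors, stood at 156 and 140.3 TPM in early growth, 60.1 and 61.3 TPM in late growth and 5.15 and 4.95 TPM in rest. LYN, a kinase of the Src family, was measured at 51.3 and 52.0 TPM in early growth, 15.9 and 16.9 TPM in late growth and 3.85 and 4.58 TPM in rest. INPP5D, the lipid phosphatase SHIP-1, stood at 28.5 and 26.1 TPM in early growth, 8.10 and 8.14 TPM in late growth and 2.81 and 3.13 TPM in rest. LYN and INPP5D are also expressed in leukocytes, whose marker list took 0.0710% and 0.0702% of TPM in early growth, 0.0119% and 0.0117% in the late phase, and 0.122% and 0.113% in rest. The rule fixed the order of LYN and INPP5D, so nothing is read from its difference from that of the list. The part of leukocytes in their levels was not tested. INPP5D lies near NGEF in the gene table, with 1 gene between them. GFRA4, a co-receptor for ligands of the GDNF family, had levels of 59.5 and 70.1 TPM in early growth, 22.9 and 28.8 TPM in late growth and 2.61 and 4.18 TPM in rest. NGEF was at 3.41% of its early growth mean in rest, GFRA4 at 5.24%, LYN at 8.16% and INPP5D at 10.9%. ERBB3, a neuregulin receptor that also counts as a Schwann cell marker, stood at 42.1 and 50.3 TPM in early growth, 25.3 and 25.4 TPM in late growth and 13.6 and 14.4 TPM in rest. The Schwann cell list as a whole took 0.0181% and 0.0218% of TPM in early growth, 0.0120% and 0.0124% in the late phase, and 0.0214% and 0.0210% in rest. The order of ERBB3 was likewise fixed by the rule, and the part of Schwann cells in its level was not tested. RIPK3, the kinase of necroptosis, was measured at 81.3 and 81.1 TPM in early growth, 46.3 and 46.0 TPM in late growth and 3.84 and 4.75 TPM in rest. ADRA1B, an alpha adrenergic receptor, differed in shape, at 12.3 and 13.8 TPM in early growth, 0.809 and 1.21 TPM in late growth and 0 and 0.253 TPM in rest, with 77.1% of its difference at the first step. PIEZO1, a mechanically gated channel, DOK4, DGKK, CSNK1G1, TNFRSF14 and MAP3K6 completed the group.

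The 19 secreted, matrix and adhesion genes held some of the most abundant members. NOV, a matricellular protein also known as CCN3 and kept because the table lists it as NOV, stood at 767 and 906 TPM in early growth, 428 and 441 TPM in late growth and 19.9 and 22.4 TPM in rest. Its late growth level was still above the early level of SULF2, and it had the larger step between late growth and rest (-0.94 and -4.30). EFEMP1, a fibulin of the extracellular matrix, had levels of 385 and 440.2 TPM in early growth, 139 and 141 TPM in late growth and 49.7 and 53.4 TPM in rest. CDH3, P-cadherin, which joins basal keratinocytes and is on the basal marker list, stood at 379 and 362 TPM in early growth, 173 and 161 TPM in late growth and 83.4 and 77.8 TPM in rest. Unlike NOV, EFEMP1 and CDH3 had about equal differences at both steps (-1.55 and -1.42, and -1.14 and -1.04).

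SULF2, an extracellular sulfatase that trims heparan sulfate and so alters the binding of growth factors, was measured at 338 and 284 TPM in early growth, 157 and 169 TPM in late growth and 39.9 and 45.1 TPM in rest. GPC3, a cell surface heparan sulfate proteoglycan, stood at 16.4 and 13.5 TPM in early growth and 0.832 and 0.127 TPM in late growth and was listed at 0 in both resting libraries. On the log2(TPM + 1) scale GPC3 had the highest share of its difference at the first step of all members, 86.9%, a value that rests on the 1 TPM added, since its late growth libraries were 6.55 times apart and under 1 TPM. FREM2, a basement membrane protein that holds epidermis to dermis, stood at 23.1 and 20.6 TPM in early growth, 3.66 and 4.84 TPM in late growth and 1.03 and 0.866 TPM in rest. FREM2 lies next to another member, the complement gene C4A, in the gene table. WFDC2L, a relative of a secreted protease inhibitor, stood at 56.9 and 76.2 TPM in early growth and 17.3 and 13.3 TPM in late growth and was listed at 0 in both resting libraries. PLAU, urokinase, had levels of 51.4 and 49.3 TPM in early growth, 21.8 and 25.4 TPM in late growth and 3.58 and 2.18 TPM in rest. The semaphorin SEMA3E, a guidance cue, stood at 29.6 and 32.0 TPM in early growth, 12.8 and 15.1 TPM in late growth and 0.789 and 0 TPM in rest, and SEMA3DL, named as a relative of another semaphorin, at 31.9 and 38.1 TPM in early growth, 6.15 and 5.56 TPM in late growth and 0.465 and 1.21 TPM in rest. Both were at or near 0 in rest. The desmosomal protein PKP2 was measured at 34.9 and 39.9 TPM in early growth, 10.3 and 10.7 TPM in late growth and 2.52 and 3.38 TPM in rest.

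Lipid and steroid metabolism was the role of 11 members. AKR1D1, a reductase of steroid hormones and bile acid precursors, stood at 398 and 409.9 TPM in early growth, 109 and 115 TPM in late growth and 19.3 and 14.9 TPM in rest. ISYNA1, which makes inositol phosphate from glucose phosphate, stood at 96.6 and 116 TPM in early growth, 30.2 and 28.6 TPM in late growth and 15.2 and 14.7 TPM in rest. The first and second differences of AKR1D1 were -1.85 and -2.65, so that the larger one lay between late growth and rest. ISYNA1 was the reverse, with 66.2% of its difference at the first step. PPARG, the nuclear receptor of fat cell and sebocyte differentiation, was a member at 18.8 and 21.0 TPM in early growth, 10.9 and 10.4 TPM in late growth and 1.52 and 2.03 TPM in rest. Its classical target LPL, lipoprotein lipase, was a member as well, at 75.2 and 70.6 TPM in early growth, 35.3 and 40.1 TPM in late growth and 19.3 and 21.2 TPM in rest. ERLIN1, which restrains sterol synthesis in the endoplasmic reticulum, was measured at 164 and 168 TPM in early growth, 86.0 and 98.3 TPM in late growth and 43.6 and 51.0 TPM in rest. CYP21A1, named as a steroid hydroxylase, lies next to CENPA in the gene table, and MOGAT1, an acyltransferase of glyceride synthesis, was under 1 TPM in rest.

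The 9 solute carriers had median differences of -1.07 and -0.92, and 4 of them had the larger difference at the second step. SLC20A1, a phosphate carrier, stood at 42.6 and 43.2 TPM in early growth, 10.9 and 10.2 TPM in late growth and 5.95 and 4.79 TPM in rest. SLC5A6, the carrier of biotin and pantothenate, had levels of 88.7 and 89.0 TPM in early growth, 39.9 and 41.7 TPM in late growth and 13.2 and 11.1 TPM in rest. SLC6A9, a glycine carrier, stood at 85.3 and 106 TPM in early growth, 48.7 and 50.2 TPM in late growth and 27.4 and 24.02 TPM in rest. Late growth held 24.6% of the early growth mean in SLC20A1, 45.9% in SLC5A6 and 51.6% in SLC6A9. SLC1A3, the glutamate and aspartate carrier, was measured at 8.52 and 11.3 TPM in early growth, 2.40 and 1.497 TPM in late growth and 0.689 and 0.499 TPM in rest, and SLC28A2, a nucleoside carrier, at 5.29 and 5.72 TPM in early growth and 0.561 and 0.359 TPM in late growth, with 0 in both resting libraries. SLC25A39, which brings glutathione into mitochondria, stood at 99.1 and 128 TPM in early growth, 61.8 and 61.3 TPM in late growth and 34.7 and 34.8 TPM in rest.

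RNA and chromatin genes made up 11 members with median differences of -1.13 and -1.01, and none had a resting mean under 1 TPM. NOP56, a core protein of the particles that methylate ribosomal RNA, had levels of 341 and 368 TPM in early growth, 148 and 137 TPM in late growth and 72.6 and 67.7 TPM in rest. AAAS, a nuclear pore protein, stood at 164 and 141 TPM in early growth, 74.8 and 63.5 TPM in late growth and 37.3 and 35.4 TPM in rest. PHF19, an accessory subunit of the Polycomb complex that methylates histone H3, was measured at 45.2 and 44.0 TPM in early growth, 17.5 and 16.9 TPM in late growth and 9.31 and 9.49 TPM in rest. In each of these most of the difference lay at the first step (56.4%, 55.6% and 62.1%). LHX8, a homeobox factor known from mammalian forebrain and tooth, had another shape, at 31.0 and 40.2 TPM in early growth, 16.8 and 19.0 TPM in late growth and 1.47 and 1.51 TPM in rest, with 24.5% at the first step.

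The remaining 62 members were given no role group. The most abundant member of all was PPIB, a cyclophilin that folds proteins in the endoplasmic reticulum, at 1478 and 1565 TPM in early growth, 848 and 754 TPM in late growth and 439 and 438 TPM in rest. Next came SELENOU, a selenoprotein, at 1216 and 1143 TPM in early growth, 688 and 691 TPM in late growth and 115 and 128 TPM in rest. PPIB had nearly equal differences at both steps (-0.93 and -0.87), while in SELENOU most of the difference lay between late growth and rest (-0.77 and -2.49). PPIB lies next to CSNK1G1, also a member, in the gene table, and where neighbours overlap their reads may not be told apart; PALD1 and ADAMTS14 are another such pair. GSS, the last enzyme of glutathione synthesis, stood at 149 and 166 TPM in early growth, 88.5 and 86.5 TPM in late growth and 41.5 and 48.7 TPM in rest. HSP90AB1, a cytosolic chaperone, stood at 89.2 and 86.1 TPM in early growth, 44.6 and 50.1 TPM in late growth and 19.6 and 14.2 TPM in rest. Both kept a clear signal in rest. BORL4 and the zinc finger gene ZNF330 were more abundant in early growth than GSS, at 183 and 202 TPM in early growth, 113 and 111 TPM in late growth and 32.1 and 22.9 TPM in rest for BORL4 and 179 and 185 TPM in early growth, 93.0 and 105 TPM in late growth and 27.6 and 25.7 TPM in rest for ZNF330. REEP6, which shapes the endoplasmic reticulum, stood at 35.9 and 45.2 TPM in early growth and 22.1 and 16.2 TPM in late growth and was listed at 0 in both resting libraries.

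In all, 21 members carry only a LOC identifier in the table, and 159 of the 179 were found in the RefSeq gene table. LOC107051719 had the largest difference at the first step on the log2(TPM + 1) scale, at 74.2 and 73.2 TPM in early growth and 3.74 and 2.67 TPM in late growth, and was listed at 0 in both resting libraries. Late growth held 4.35% of its early growth mean, against 2.57% in MIR6615 and 3.21% in GPC3. LOC423719 was the most abundant of them, at 307 and 328 TPM in early growth, 174 and 166 TPM in late growth and 18.8 and 15.5 TPM in rest. In LOC112532140, at 7.63 and 8.90 TPM in early growth, 1.25 and 1.20 TPM in late growth and 0.566 and 0.681 TPM in rest, 81.8% of the difference lay at the first step. MIR6615, the row of a microRNA gene in libraries that were not made from small RNA, stood at 14.8 and 36.7 TPM in early growth and 0.524 and 0.799 TPM in late growth, and was listed at 0 in both resting libraries. Its early growth libraries were 2.48 times apart, the widest gap of any member in that phase.

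To set the members among their pathways, each step was tested over all 13063 genes with limma on log2(TPM + 1), with Benjamini-Hochberg adjustment and a threshold of 0.05. The 2 steps share the late growth libraries. Late growth was lower than early growth in 28.4% of tested genes and higher in 5.24%. Rest was lower than late growth in 23.1% and higher in 24.7%, and 5.01% of genes were lower at both steps. Of the members, 166 were called lower at the first step, 165 at the second and 153 at both, and since the rule used these contrasts nothing is read from those counts. Without late growth library 1 the first step gave 1499 lower genes and without library 2 it gave 1587, against 3710 with all 6 libraries. The first step also depended on scaling. With TPM, 84.4% of its calls were lower, against 53.0% after median-of-ratios scaling and 52.7% after quantile normalization. At the second step the share was 48.3%, and 37.5% after TPM were rescaled without globins, smooth muscle and erythroid genes.

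Of the 293 tested genes in 6 cell division lists (spindle, mitosis, replication, nucleotide synthesis, repair and the E2F and RB family), 39 were members (13.3%), against 1.37% of all tested genes. The lists were chosen with earlier results of these data known, and not all tested genes reach the early growth minimum of 5 TPM. Nothing is therefore read from the share of members. The remaining 254 moved chiefly at the second step. They include CCNB2, CCNB3, CDK2, KIF18B, KIF23, KIF4A and KIFC1, which met the numbers and were left out by name. Rest was lower than late growth in 200 of the 254 (78.7%, against 23.1% of all tested genes) and higher in 6, with a median difference of -1.82. Late growth was lower than early growth in 53 (20.9%, against 28.4%) and higher in 10, with a median of -0.38. Both steps were lower in 39 (15.4%, against 5.01%), and only the second in 161. Setting the members apart takes out genes chosen for being lower at the first step, so the whole lists are given too. There, 91 of 293 (31.1%) were lower at the first step and 239 (81.6%) at the second. After median-of-ratios scaling, 12 of the 254 were lower and 24 higher at the first step, against 1952 and 1729 of the 13015 genes tested with that scaling. Both shares of the 254 were thus below those of all genes. At the second step 205 of the 254 were lower, against 3138 of the 13015. Without late growth library 1 or 2, fewer of the 254 were lower at either step, as was the case over all tested genes.

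SMC2, the core ATPase of condensin, was measured at 275 and 256 TPM in early growth, 227 and 256 TPM in late growth and 2.72 and 4.60 TPM in rest. It did not pass the test at the first step (-0.14, SE 0.20, limma adjusted p 0.633) and fell at the second (-5.73, SE 0.20, limma adjusted p 1.2e-05). RRM2, the subunit of ribonucleotide reductase that rises in S phase, stood at 253 and 238 TPM in early growth, 183 and 195 TPM in late growth and 5.66 and 2.25 TPM in rest. PLK1, the mitotic kinase, had levels of 127 and 107 TPM in early growth, 63.8 and 70.3 TPM in late growth and 0.815 and 0.595 TPM in rest. RRM2 did not pass the test at the first step either (-0.37, SE 0.31, limma adjusted p 0.406), except in the fits without a resting library or with the 2 phases alone (adjusted p between 0.0346 and 0.0478). At the second step RRM2 differed by -5.35 (SE 0.31, limma adjusted p 7.1e-05) and PLK1 by -5.32 (SE 0.16, limma adjusted p 8.4e-06), and no resting library held more than 5.66 TPM of PLK1, RRM2 or SMC2. At the first step PLK1 differed by -0.79 (SE 0.16, limma adjusted p 0.0149), a call lost without late growth library 1 (adjusted p 0.122) or 2 (0.0845) and after median-of-ratios scaling (0.0608) or quantile normalization (0.0642), the range over all alternatives being 0.0131 to 0.122. A few went the other way. TIMELESS, which steadies the replication fork, stood at 47.2 and 44.6 TPM in early growth, 20.1 and 20.3 TPM in late growth and 34.1 and 35.0 TPM in rest, and SGO2, which protects centromere cohesion, at 12.1 and 10.9 TPM in early growth, 2.21 and 1.72 TPM in late growth and 13.5 and 12.8 TPM in rest. Both fell at the first step and rose at the second (TIMELESS -1.14 and 0.74, SGO2 -2.08 and 2.26, limma adjusted p between 0.000479 and 0.00326).

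**Figure D4:**
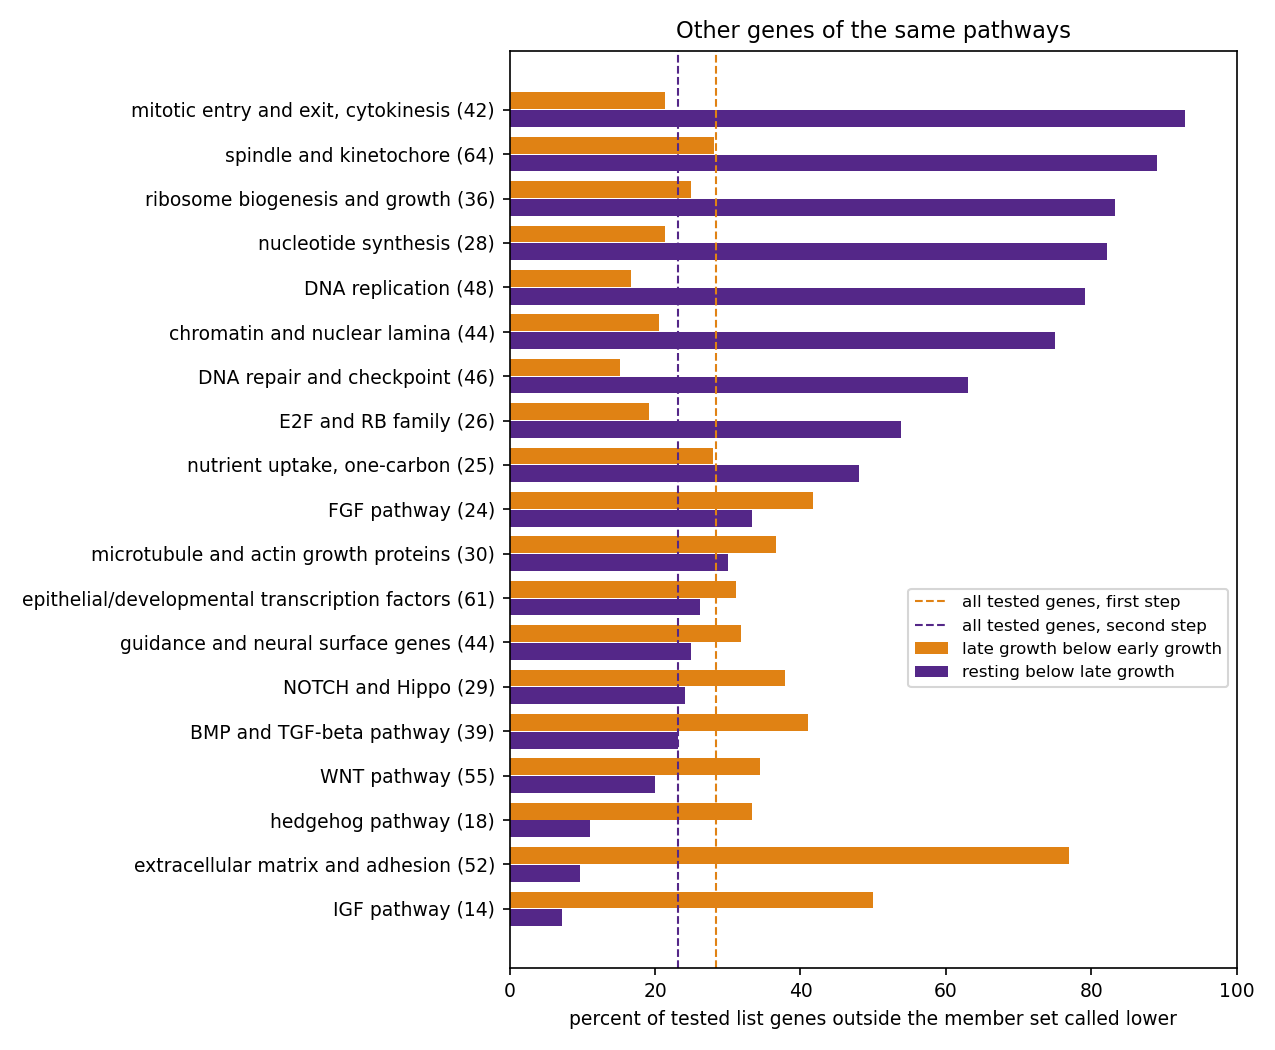
Percent of the tested genes of each pathway list, members left out, that were called lower at the first step (orange) and at the second (violet), with the number of genes in brackets. Dashed lines give the same over all tested genes, 28.4% and 23.1%; the mitosis, ribosome, nucleotide, replication and chromatin lists lie far to the right of the second line, and the matrix list far to the right of the first line alone.

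By list, the same pattern ran through mitotic entry, exit and cytokinesis (39 of 42 lower at the second step, 9 at the first), spindle and kinetochore (57 and 18 of 64), DNA replication (38 and 8 of 48), and DNA repair and checkpoint (29 and 7 of 46). At the second step these are 92.9%, 89.1%, 79.2% and 63.0%, against 23.1% of all tested genes. At the first they are 21.4%, 28.1%, 16.7% and 15.2%, not above the 28.4% of all tested genes. With the members included the first step gave 38.9%, 38.2%, 25.9% and 27.8%. Nucleotide synthesis, with 23 of 28 lower at the second step, held no member. Ribosome biogenesis, where NOP56 was the single member, had 30 of its other 36 genes lower at the second step and 9 at the first (2 and 3 at the first without late growth library 1 or 2, and 1 after median-of-ratios scaling). There NPM1, the nucleolar protein nucleophosmin, rose at the first step (0.47, SE 0.04, limma adjusted p 0.00115) and fell at the second (-0.71, limma adjusted p 8.3e-05), at 2692 and 2711 TPM in early growth, 3652 and 3839 TPM in late growth and 2286 and 2282 TPM in rest. The rise of NPM1 did not pass the test after quantile normalization (adjusted p 0.146).

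The matrix and adhesion list had another shape. Of its 52 genes other than EFEMP1, CDH3, FREM2 and GPC3, 40 fell at the first step (76.9%, against 28.4% of all tested genes). At the second 35 of the 52 rose, against 24.7% of all tested genes, and 2 were lower at both. Setting the members apart takes out genes chosen for being lower at both steps. The share of 3.85% is therefore not read against the 5.01% of all tested genes. With the 4 members included, 44 of 56 genes (78.6%) were lower at the first step and 8 (14.3%) at the second. LUM, the collagen-binding proteoglycan lumican, was measured at 154 and 151 TPM in early growth, 2.84 and 1.36 TPM in late growth and 222 and 207 TPM in rest, and POSTN, periostin, at 22.6 and 12.8 TPM in early growth, 0.16 and 0.173 TPM in late growth and 225 and 275 TPM in rest. LUM and POSTN are also on the fibroblast list, which took 0.408% and 0.410% of TPM in early growth, 0.0593% and 0.0610% in the late phase, and 0.499% and 0.513% in rest. The part of that tissue in the list's changes was not tested. The 4 members of the list had their lowest levels in rest, as the rule requires.

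The WNT list contained LGR5 and LGR6 as its members. Of its other 55 genes, 19 were lower (34.5%, against 28.4% of all tested genes) and 4 higher at the first step. At the second 11 were lower (20.0%, against 23.1%) and 23 higher, and 3 were lower at both. With LGR5 and LGR6 included, 21 of 57 (36.8%) were lower at the first step and 13 (22.8%) at the second. Among the 55 is FZD8, which met the numbers and was left out by its name. After median-of-ratios scaling the first step gave 11 lower and 13 higher of the 55, against 1952 and 1729 of the 13015 genes tested with that scaling. Without either late growth library fewer of the 55 were called at the first step. FRZB, a secreted WNT antagonist, stood at 34.9 and 28.2 TPM in early growth, 3.34 and 3.14 TPM in late growth and 91.9 and 80.3 TPM in rest, falling at the first step (-2.93, SE 0.17, limma adjusted p 0.000241) and rising at the second (4.36, SE 0.17, limma adjusted p 1.6e-05). No member came from the lists of the IGF, FGF, BMP and TGF-beta, hedgehog, or NOTCH and Hippo pathways, or from that of progenitor and developmental transcription factors. GAS1 of the hedgehog list met the numbers and was left out by its name. LHX8, a homeobox factor and a member, was not on the transcription factor list. Members were 1.37% of all tested genes, so few would be looked for in lists of this size, and nothing is read from their absence. Lower at both steps were 1 of 14 genes in the IGF list, 3 of 24 in FGF, 3 of 39 in BMP and TGF-beta and 1 of 18 in hedgehog. The NOTCH and Hippo list had 2 of 29 and the transcription factor list 1 of 61, against 5.01% of all tested genes. In the IGF list 7 of 14 genes were lower at the first step and 7 higher at the second, against 28.4% and 24.7% of all tested genes.

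How many genes met the rule depended on the scaling of the libraries. Median-of-ratios scaling, which sets the median gene equal across libraries, left 82 of the 179 members and added 3 genes. Quantile normalization left 74 and added 26. With the rescaled TPM, 145 stayed and 5 were added. Under all 3 scalings 59 members met the rule, and 50 did so under every alternative tried. Only the 3 scalings, the fold threshold of 2 and the early growth minimum of 10 TPM could remove a member. The other alternatives relax the rule, so every member passes them by construction. Among the 50 were PRC1, NCAPH, CENPI, GINS1, POLA2, LIG1, FANCD2, FANCI, DNA2, LGR5, NGEF, LYN, AKR1D1, EFEMP1, FREM2, GPC3 and LOC107051719. TPX2, CDCA3, BUB1, RACGAP1, LGR6, CDH3, NOV, PPIB and SELENOU were not. By role, median-of-ratios scaling left 11 of 32 mitosis genes, 11 of 20 replication and repair genes, 7 of 11 lipid genes, 6 of 15 receptor and signalling genes and 9 of 19 secreted and matrix genes. The size factors ran from 0.9164 to 1.256 and so differed by less than the 1.6 times the rule asks for. Early growth above late growth above rest without overlap was therefore fixed by the choice of members also after median-of-ratios scaling, and it held in 177 members after quantile normalization. Such an order was seen in 16.3% of all tested genes with TPM, in 7.86% after median-of-ratios scaling and in 10.3% after quantile normalization.

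**Figure D5:**
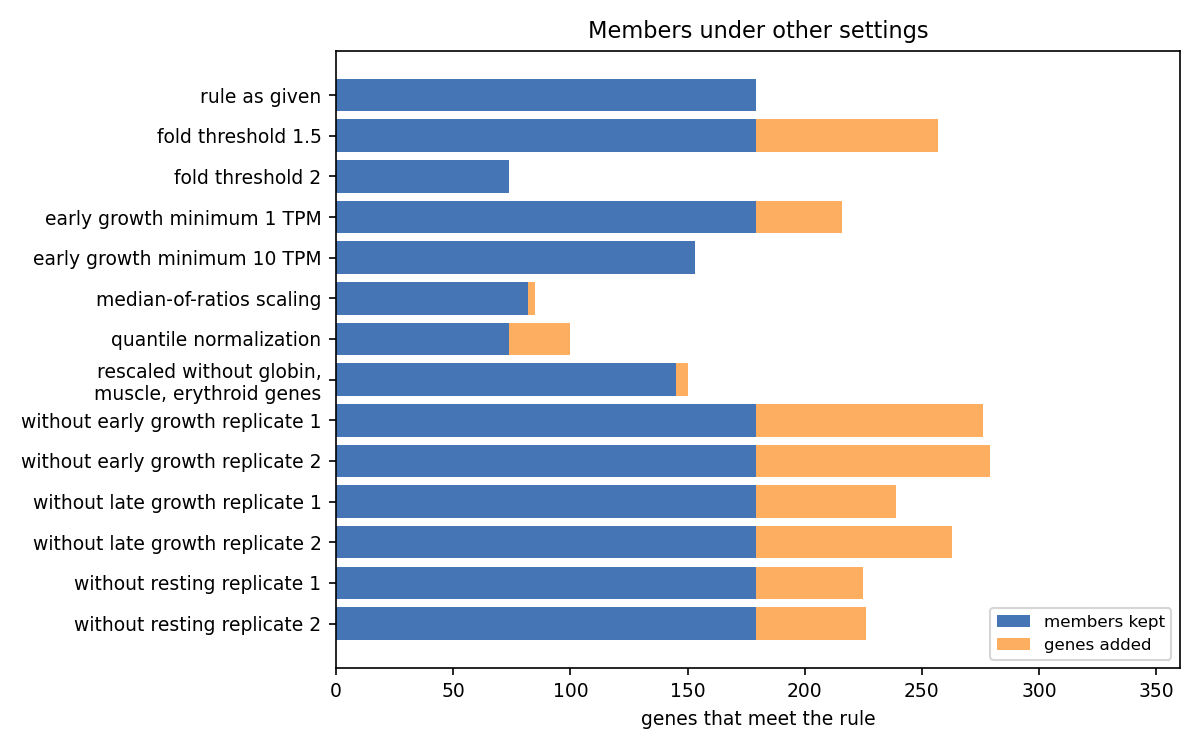
Number of genes that met the rule as given and under each alternative, split into members kept (blue) and genes added (orange). The count runs from 74 with a fold threshold of 2 to 279 without early growth library 2, and 85 and 100 genes meet the rule after median-of-ratios scaling and quantile normalization.

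Leaving out 1 library relaxes the rule, so all 179 members remained and between 46 and 100 genes were added. The rule mirrored in time asked for a lower resting value above 5 TPM and more than 1.6 times between phases upward. With no row left out by name, 25 of 9853 rows met it. The counterpart is the 194 of 9889 rows that met the numbers before names were left out. The mirrored count was made on TPM alone and was not repeated after the other scalings. With TPM, 84.4% of the calls at the first step were lower.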

How the data were processed

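RNA was extracted with Trizol from the papilla ectoderm, made into TruSeq RNA v2 libraries and read as 50-cycle single reads on a HiSeq instrument. The authors quantified transcripts with StringTie on GRCg6a and deposited TPM values, 1 column per library. Not given in the sources used here were the aligner and a strand setting. Depth and counting error are unknown from TPM. Members were found by the rule on the deposited TPM. Each step was fitted with limma 3.58.1 in R 4.3.3 (trend, all 6 libraries in one fit) on log2(TPM + 1), which understates the change of low genes, for the 13063 genes with a mean above 1 TPM, with Benjamini-Hochberg adjustment over all of them and calls at an adjusted p under 0.05. The script was tested on simulated data first. The study's own test used read counts, which were not used here. Members and lists were chosen with earlier results of these data known. The text names the most abundant members, those with the largest difference from early growth to rest, up to 6 per list, those nearest each limit, those with the highest or lowest share at the first step, and list genes with the largest calls. LGR4, PLK1, NPM1 and some members were named after their values were seen. Alternatives were other fold thresholds, minimums, pseudocounts, filters, scalings and call thresholds, the 2 phases alone, a replicate block and leaving out each library. Gene names and neighbours came from a RefSeq table of another assembly, so no coordinates or sequences are given. Some members are not reported here by name.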

Additional observations from a re-analysis of the deposited data

How the results depend on the processing

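The count of genes meeting the rule was 74 with a fold threshold of 2, 85 after median-of-ratios scaling and 100 after quantile normalization, and 225 to 279 without 1 library. Of all tested genes, 3710 were lower and 684 higher at the first step. These counts were 1952 and 1729 after median-of-ratios scaling and 1798 and 1611 after quantile normalization, and 452 were higher with only the 2 phases compared. With a log2 difference above 1 as well, 1965 were lower and 259 higher, and at an adjusted p under 0.01 with a difference above 2, 519 and 85. Without 1 library the lower count ran from 1499 to 3893 and the higher count from 230 to 1588, the lowest values being those without a late growth library and 1588 that without early growth replicate 1. At the second step 3013 were lower and 3228 higher. A log2 difference above 1 left 1454 lower, and the stricter pair of thresholds left 478 lower and 1083 higher. Without 1 library the lower count ran from 1873 to 3536 and the higher count from 2047 to 3864. The cause of these shifts was not tested, beyond the stricter thresholds, which can only remove calls. With the replicate number as a block, 3153 and 547 genes were lower and higher at the first step and 2789 and 2968 at the second, and since same-numbered libraries did not deviate together (correlations from -0.0289 to 0.0149) nothing is drawn from it. Of the list genes with the largest falls at the second step, EXO1, SLC7A5 and SMC2 changed sign at the first under some alternatives. They did not pass the test there under either setting, and of them only SMC2 is described above. The balance of calls turned as well. At the first step, lower and higher calls among list genes outside the member set went from 53 and 10 to 12 and 24 in the cell division lists after median-of-ratios scaling, from 19 and 4 to 11 and 13 in the WNT list, and from 9 and 2 to 1 and 8 in the ribosome list. At the second step 3596 genes were lower and 2915 higher after quantile normalization. Promoter, protein and chromosome comparisons planned for the members were not run, since no genome or sequence table was used here. Groups of 2 libraries allow no test for an outlying library, and TPM without counts set no limit on what a value of 0 allows.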
